A study of Capra hircus with 3 samples.

Results

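The retinoic acid synthesis, breakdown and carrier genes are 9 genes chosen by symbol, namely ALDH1A1, ALDH1A2, CYP26A1, CYP26B1, CRABP1, CRABP2, RBP4, STRA6 and RARB. Each matched 1 of the 27271 features in the deposited matrices, of which 16616 carried a symbol. Their transcripts were counted in 3 droplet single-cell RNA libraries of the domestic goat (Capra hircus), labelled as male fetal testis of the embryonic stages E85, E105 and E125. No genotype, treatment or agent distinguishes the libraries, all 3 are labelled as testes dissociated with enzymes, and the number of fetuses behind each is not stated in the labels. There was 1 library per stage, so none of the differences given here could be tested or checked in a replicate. Levels are unique molecular identifiers (UMIs) of a gene per 1000000 UMIs of a cell class in a library (CPM), with exact Poisson 95% intervals. Ratios carry exact binomial 95% intervals of the split of both UMI sums, shares of cells carry Clopper-Pearson 95% intervals, and all of these cover counting error only.

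Retinoic acid is made from vitamin A. Retinol is oxidised to retinal by alcohol and short-chain dehydrogenases, retinal is oxidised to retinoic acid by the ALDH1A enzymes, and the CYP26 enzymes clear it. RBP4 carries retinol in the blood, STRA6 lets cells take retinol up from RBP4, CRABP1 and CRABP2 bind retinoic acid inside cells, and RARB is a nuclear receptor whose gene is itself switched on by retinoic acid. In the fetal gonads of mice, retinoic acid is tied to the entry of female germ cells into meiosis, and breakdown by CYP26B1 in the fetal testis is known to keep male germ cells from that path.

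The libraries held 40741902 to 49692252 UMIs in 7478 to 8520 barcodes, and 5948, 6645 and 6880 cells remained for E85, E105 and E125. The library labelled E125 went against its label. The Sertoli genes AMH, SOX9 and DMRT1 were at 32.8, 24.9 and 9.24 CPM in it, against 1383, 218 and 123 CPM in the E85 library, while the oocyte genes ZP3 and FIGLA were at 2075 and 784 CPM, against 1.18 CPM each at E85. By cluster name, it held 5 Sertoli-like and 0 germ-like cells, but 115 oocyte-like and 591 pregranulosa-like cells. E85 and E105 held 0 and 2 oocyte-like and 0 pregranulosa-like cells. In the oocyte-like cluster 23, 9 germ-like markers were detected beside 8 oocyte-like markers. With cells gated on their own markers, the library labelled E125 held 44 germ-like, 18 Sertoli-like, 28 oocyte-like and 160 pregranulosa-like cells. It is therefore called the library labelled E125, and every E105 to E85 value stands apart from it. When E85 and E105 were clustered without it, all 26 ratios of the 9 genes between these libraries moved by less than their intervals. Only CRABP1 in lymphoid-like cells, from 8 and 13 UMIs, was then newly past 2-fold (2.60 in place of 1.04). Sertoli-like cells numbered 2389 at E85 and 1986 at E105, germ-like cells 235 and 84, and Leydig-like cells 19 and 21. Stromal-like, endothelial-like, mural-like, macrophage-like and lymphoid-like cells were found in all 3 libraries. Mural-like and macrophage-like cells were 1 cluster each in every library, and lymphoid-like cells the same 5 clusters, while stromal-like and endothelial-like cells of the library labelled E125 lay mainly in other clusters than those of E85 and E105. Stromal-like cells of the library labelled E125 lay mainly in cluster 2 (led by COL12A1 and MGP) and cluster 4 (led by CHODL and PENK), and those of E85 and E105 in cluster 1 (DLK1 and CCL11) and cluster 3 (CCN3 and DLK1). The libraries shared 9 to 14 cell barcodes per pair.

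ALDH1A1 (ENSCHIG00000017958), an enzyme that makes retinoic acid from retinal, was found mostly in Sertoli-like and Leydig-like cells at E85 and E105. Sertoli-like cells held 93.1% of its UMIs at E85 and 91.4% at E105, while they held 62.7% and 55.3% of all UMIs. Its level in them was 236 CPM (230 to 242) at E85 and 338 CPM (330 to 346) at E105, a ratio of 1.43 (1.38 to 1.48). The level at E105 was thus higher by less than 2-fold, and the intervals lay apart. A UMI of the gene was found in 78.2% of Sertoli-like cells at E85 and in 83.3% at E105, with medians of 10108 and 9732 UMIs per cell. The background of free RNA was read in lymphoid-like cells, chosen because endothelial-like and macrophage-like cells were higher in this gene. The choice thus rests on the gene's own values. The lymphoid-like share was 2.04% and 2.77% at medians of 3790 and 4595.5 UMIs. With each cell thinned to 1000 UMIs, the Sertoli-like shares were 19.6% (18.0 to 21.2) and 28.3% (26.3 to 30.3), and the lymphoid-like shares 0.255% and 0.519%.

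The 21 Leydig-like cells of E105 stood above every other class that held at least 20 cells, at 1521 CPM (1348 to 1711) of ALDH1A1. Of them, 19 had a UMI of the gene. ALDH1A1 was found in each Sertoli-like cluster. The AMH-led clusters 0 and 7 had 237 and 243 CPM at E85 and 347 and 336 CPM at E105. Cluster 17, led by INHA, had 201 and 273 CPM. In cluster 31, also led by INHA, the values of 212 and 260 CPM had overlapping intervals. Each of the 4 clusters was therefore higher at E105, 3 of them beyond counting error. Cluster 34 had 311.5 CPM (261 to 369) in 41 cells at E85, and its 9 cells at E105 were too few for a level.

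**Figure D1:**
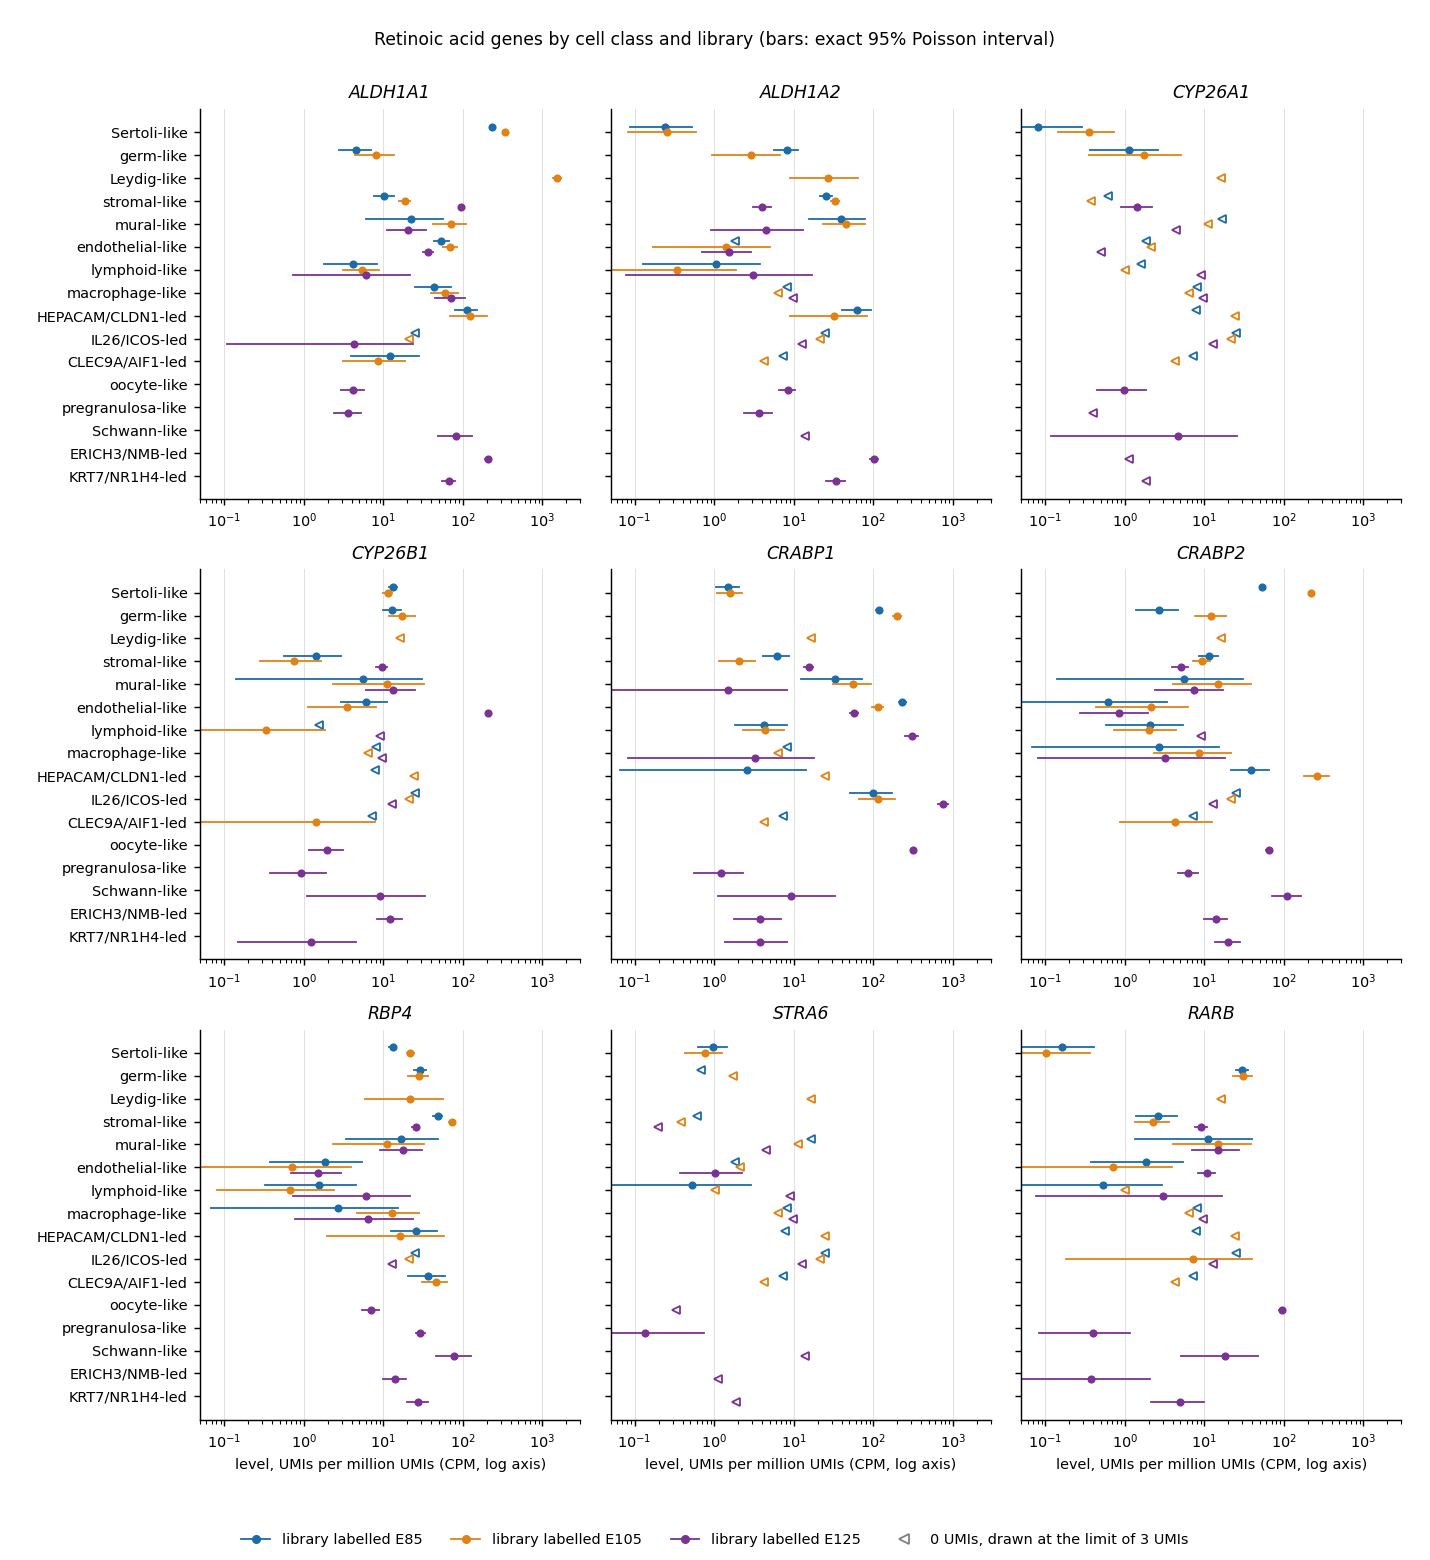
Levels of the 9 genes (CPM, log axis from 0.05) by cell class, 1 panel per gene, for classes of at least 20 cells. Points are class sums of 1 library coloured by library, bars are exact 95% Poisson intervals that may run off the left edge, and open triangles are 0 UMIs drawn at the limit of 3 UMIs. ALDH1A1 and CRABP2 were high in Sertoli-like cells, and CYP26B1 stood at 210 CPM in endothelial-like cells of the library labelled E125. CRABP1 was high in germ-like cells, oocyte-like cells and endothelial-like cells of E85 and E105. In the library labelled E125 it was also high in the IL26/ICOS-led cluster (759 CPM) and lymphoid-like cells (303 CPM).

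In stromal-like cells ALDH1A1 was at 10.3 CPM (7.69 to 13.6) at E85, 18.6 CPM (15.7 to 21.9) at E105 and 94.8 CPM (89.9 to 99.8) in the library labelled E125. The first of these steps was a ratio of 1.80 (1.30 to 2.53) and the second a ratio of 5.09 (4.29 to 6.07), with no overlap of intervals. The E85 and E105 levels were 4.37% and 5.52% of the Sertoli-like level. In the same cells the Sertoli gene AMH was at 2.46% and 1.37% of it, and INHA at 1.55% and 1.03%. The part of RNA from Sertoli cells in these stromal-like values was not tested. Thinned to 1000 UMIs, 0.927%, 1.61% and 8.89% of stromal-like cells had a UMI of it. The stromal-like clusters of the library labelled E125 ranged from 46.2 CPM in cluster 4 to 127 CPM in cluster 2 and 167 CPM in cluster 26, which was led by the interferon-response gene MX2. Stromal-like cells held 58.4% of the ALDH1A1 UMIs of that library. A further 22.2% lay in its ERICH3/NMB-led cluster of 159 cells, which had 206 CPM (189 to 224). In that cluster 3 mesothelial-like markers were detected, but the naming rules gave it no cell type.

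Endothelial-like cells had 53.7 CPM of ALDH1A1 at E85, with 69.7 CPM at E105, and 36.5 CPM in the E125-labelled library, and macrophage-like cells 43.6, 59.6 and 71.0 CPM. The macrophage-like intervals overlapped each other. The HEPACAM/CLDN1-led cluster was higher, at 111 CPM (80.6 to 150) in 72 cells at E85 and 122 CPM (68.1 to 201) in 24 cells at E105. Germ-like cells had 20 and 14 UMIs, or 4.50 CPM (2.75 to 6.95) and 8.14 CPM (4.45 to 13.7), close to the lymphoid-like values of 4.21 and 5.38 CPM. Oocyte-like and pregranulosa-like cells were also low, at 4.13 and 3.62 CPM. Mural-like cells, named after the contractile cells around vessels, had 22.1 CPM (4 UMIs), 70.8 CPM (19 UMIs) and 20.7 CPM (14 UMIs). In their cluster 13, 9 of 10 mural-like markers were detected, but also 5 peritubular myoid-like and 4 stromal-like markers. Cells of these other types in the class were not told apart. In E105, 12 of the 19 UMIs lay in 1 cell, and without the highest cell of each library the levels were 11.2, 27.1 and 17.8 CPM. The Sertoli gene AMH in mural-like cells of E105 was at 436 CPM, 6.31% of its Sertoli-like level, against 2.28% at E85. The part of RNA from Sertoli cells in the mural-like value was not tested.

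ALDH1A2 (ENSCHIG00000025960), the retinal-oxidising enzyme best known from mesoderm and mesonephros, was found in other cells than ALDH1A1. In stromal-like cells it was at 25.7 CPM (21.4 to 30.6) at E85, 33.2 CPM (29.3 to 37.5) at E105 and 3.98 CPM (3.05 to 5.12) in the library labelled E125. E105 stood above E85 by a ratio of 1.29 (1.04 to 1.61), and the library labelled E125 stood below both, at ratios of 0.155 (0.112 to 0.212) and 0.120 (0.0893 to 0.159). Stromal-like cells held 62.0% of its UMIs at E85 and 88.5% at E105. Within cluster 1 the level was 38.7 and 38.0 CPM, and within cluster 3 it was 20.9 and 16.1 CPM with overlapping intervals. Cluster 1 held 511 cells at E85 and 2420 at E105, while cluster 3 held 1476 and 585. In the 2 large stromal-like clusters of the library labelled E125 ALDH1A2 was at 1.49 and 8.04 CPM.

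Sertoli-like cells had 6 and 5 UMIs of ALDH1A2, or 0.241 and 0.254 CPM, in 24906569 and 19711744 UMIs. The gene was thus near its detection limit in the class where ALDH1A1 was concentrated. Mural-like cells had 38.7 CPM (7 UMIs), 44.7 CPM (12 UMIs) and 4.43 CPM (3 UMIs) at E85, E105 and in the library labelled E125. Germ-like cells had 8.10 CPM (5.67 to 11.2) at E85 and 2.91 CPM (0.944 to 6.78) at E105, a ratio of 0.359 (0.110 to 0.917) that rests on 36 and 5 UMIs. The highest level of ALDH1A2 in any class was in the ERICH3/NMB-led cluster of the library labelled E125, at 102 CPM (90.3 to 115) with a UMI in 96 of 159 cells. That cluster held 54.0% of the ALDH1A2 UMIs of its library, and it was also the class with the highest ALDH1A1 level among those of at least 20 cells there. The KRT7/NR1H4-led cluster of the same library had 33.6 CPM, and the HEPACAM/CLDN1-led cluster had 62.1 CPM (39.8 to 92.5) in 72 cells at E85 and 32.5 CPM (8.84 to 83.1) in 24 cells at E105. The 3 clusters named by their leading genes stayed without a cell type name under the naming rules, though some markers were detected. These were 3 mesothelial-like markers in the ERICH3/NMB-led cluster and 3 rete-like markers in the HEPACAM/CLDN1-led cluster. The KRT7/NR1H4-led cluster had 3 markers of each of these lists.

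CYP26B1 (ENSCHIG00000017070), which breaks retinoic acid down, was at a similar level in Sertoli-like and germ-like cells at E85 and E105. Sertoli-like cells had 13.3 CPM (11.9 to 14.8) at E85 and 11.47 CPM (10.02 to 13.1) at E105, a ratio of 0.860 (0.723 to 1.02). They held 81.4% and 83.1% of its UMIs. Germ-like cells had 13.1 CPM (9.91 to 16.9) and 17.4 CPM (11.8 to 24.9), a ratio of 1.34 (0.830 to 2.11). Neither ratio differed from 1 beyond counting error, and the Sertoli-like interval reaches down to 0.723. A UMI was found in 11.7% and 9.47% of Sertoli-like cells and in 21.3% and 25% of germ-like cells, whose median depths were 18553 and 19368 UMIs. Thinned to 1000 UMIs, the 4 shares were 1.13%, 1.06%, 1.28% and 1.19%, so the gap between these classes was seen only without thinning. Macrophage-like cells had no CYP26B1 UMI in any library.

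Endothelial-like cells of the library labelled E125 stood apart from all other classes in CYP26B1. The level was 6.11 CPM (2.93 to 11.2) from 10 UMIs at E85, 3.52 CPM (1.14 to 8.22) from 5 UMIs at E105 and 210 CPM (198 to 222) from 1235 UMIs in the library labelled E125. The ratio to E85 was 34.4 (18.6 to 71.8) and that to E105 59.6 (25.5 to 183.8). Of the CYP26B1 UMIs of that library, 85.1% lay in endothelial-like cells, which held 13.3% of its UMIs. The thinned share of cells with a UMI was 1.04%, 0.424% and 15.0%.

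These endothelial-like cells lay mainly in different clusters in E85 and E105 and in the library labelled E125. Cluster 5, led by the capillary gene CA4, ID1 and CYP26B1 itself, held 605 cells of the library labelled E125 and had 243 CPM (229 to 258). Clusters were made without the 9 genes, so CYP26B1 did not define it. Cluster 8, led by PNOC and VWF, held 213 cells of E85 and 174 of E105 and had 7.01 and 4.08 CPM. Cluster 19, led by the arterial gene JAG2, was the endothelial-like cluster with at least 20 cells of each library, and there the levels were 3.40 CPM (1 UMI), 3.88 CPM (1 UMI) and 77.6 CPM (53.1 to 110; 32 UMIs). The library labelled E125 was therefore also higher within this cluster. In cluster 32, led by the lymphatic genes CCL21 and FLT4, it was at 6.26 CPM from 3 UMIs. Within cluster 5 the UMIs were uneven, since 37.2% of cells had one, where an even spread at their depth would give 69.0%, and the top 10% of cells held 67.3%.

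**Figure D2:**
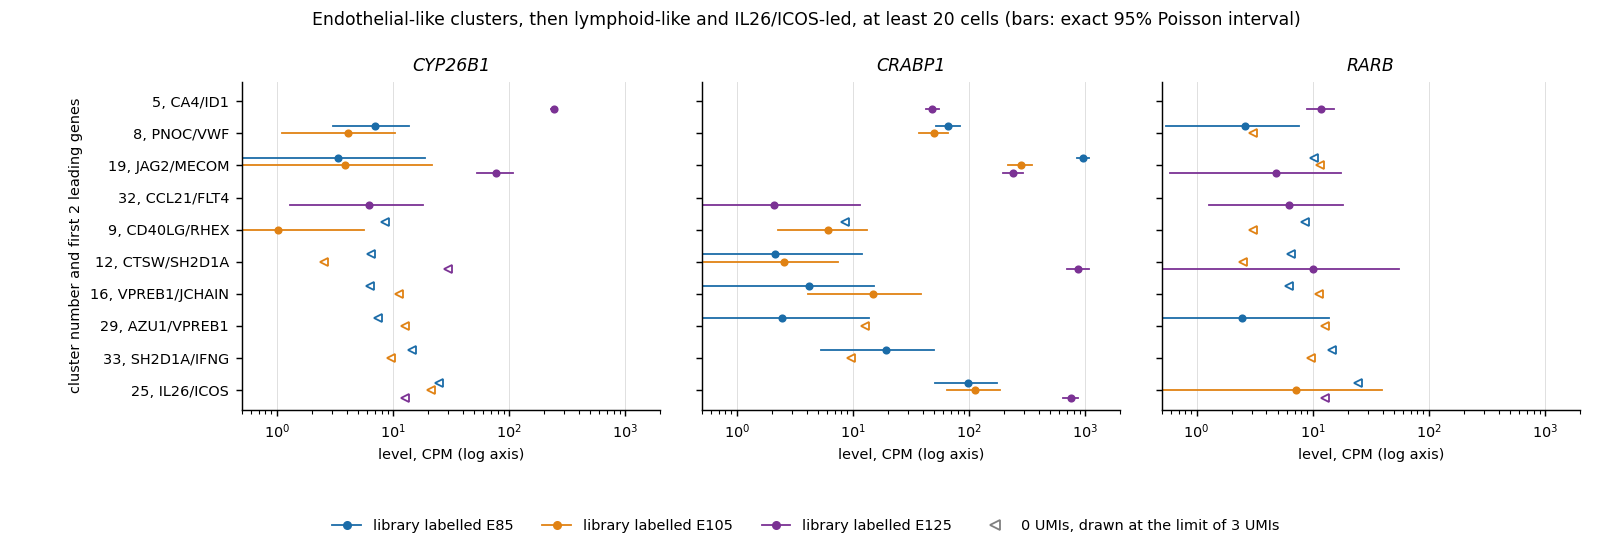
Levels of CYP26B1, CRABP1 and RARB (CPM, log axis from 0.5) in the endothelial-like clusters, then the lymphoid-like and IL26/ICOS-led clusters, with at least 20 cells of a library. Points are cluster sums of 1 library, bars exact 95% Poisson intervals and open triangles 0 UMIs at the limit of 3 UMIs. CYP26B1 was at 243 CPM in cluster 5 and 77.6 CPM in cluster 19 of the library labelled E125, and CRABP1 at 970 CPM in cluster 19 of E85 and 873 CPM in cluster 12 of the library labelled E125.

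Stromal-like cells had 7, 6 and 146 UMIs of CYP26B1, or 1.42 CPM (0.570 to 2.92), 0.760 CPM (0.279 to 1.65) and 9.53 CPM (8.05 to 11.2). The library labelled E125 was higher than E85 by a ratio of 6.73 (3.19 to 17.0), in cells of other clusters. CYP26A1 (ENSCHIG00000016774), the related enzyme that is strongly induced by retinoic acid in many cells, was near the limit of detection throughout. Whole libraries had 7, 10 and 32 UMIs of it. Of the 32, 22 were in stromal-like cells of the library labelled E125 (1.44 CPM, 0.900 to 2.18) and 9 in oocyte-like cells (0.978 CPM, 0.447 to 1.86). Germ-like cells had 5 and 3 UMIs and Sertoli-like cells 2 and 7. Stromal-like cells of E85 and E105 had none in 4941255 and 7893697 UMIs.

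CRABP2 (ENSCHIG00000009097), which delivers retinoic acid to its nuclear receptors, had the highest E105 to E85 ratio in Sertoli-like cells among those of the 9 genes with at least 20 UMIs over both libraries. Its level was 53.2 CPM (50.4 to 56.2) at E85 and 220 CPM (214 to 227) at E105, a ratio of 4.14 (3.89 to 4.40). A UMI was found in 29.3% (27.4 to 31.1) and 69.1% (67.0 to 71.1) of the cells, at nearly equal median depths of 10108 and 9732 UMIs. In endothelial-like cells, where the gene was near its detection limit at E85 (1 cell with a UMI), the share was 0.347% and 1.27%. Thinned to 1000 UMIs the Sertoli-like shares were 4.77% and 17.5%, and the endothelial-like shares 0% (limit of 3 cells in 288) and 0.424%. The difference was seen in each of the 4 Sertoli-like clusters with at least 20 cells in both libraries. CRABP2 was at 54.3 and 225 CPM in cluster 0 and at 57.9 and 214 CPM in cluster 7. It was at 39.1 and 179 CPM in cluster 17 and at 45.8 and 260 CPM in cluster 31, with intervals apart in all 4.

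**Figure D3:**
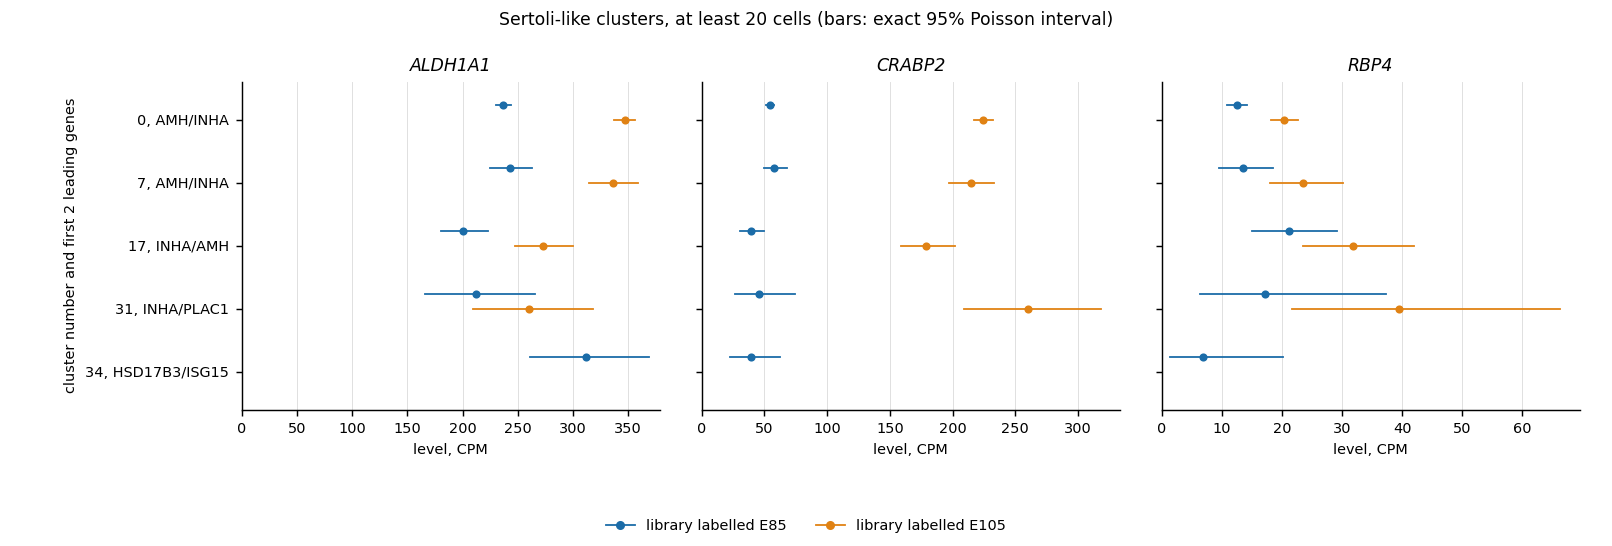
Levels of ALDH1A1, CRABP2 and RBP4 (CPM, linear axes from 0) in the Sertoli-like clusters with at least 20 cells of a library. Points are cluster sums of 1 library with exact 95% Poisson intervals, and cluster 34 had enough cells at E85 alone. CRABP2 at E105 lay between 179 and 260 CPM, above all E85 clusters, while the ALDH1A1 intervals of cluster 31 overlapped.

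Sertoli-like cells held 93.6% of the CRABP2 UMIs at E85 and 96.8% at E105. Germ-like cells had 2.70 CPM (1.40 to 4.72) and 12.2 CPM (7.56 to 18.7) from 12 and 21 UMIs, a ratio of 4.52 (2.12 to 10.1). These levels were 5.07% and 5.54% of the Sertoli-like level, while the Sertoli genes AMH and INHA in germ-like cells were at 1.12% and 0.955% of it at E85 and 1.32% and 1.75% at E105. The part of RNA from Sertoli cells in the germ-like value was not tested. The HEPACAM/CLDN1-led cluster had 38.8 CPM (21.7 to 64.1) at E85 and 260 CPM (178 to 366) at E105, in 72 and 24 cells, which is too few for a ratio under the rule used here. With its highest cell left out, the E105 value was 116 CPM. Stromal-like cells had 11.3, 9.25 and 5.03 CPM at E85, E105 and in the library labelled E125, the first 2 with overlapping intervals. Leydig-like cells of E105 had none, with a limit of 16.4 CPM. In the library labelled E125, CRABP2 was at 111 CPM (70.8 to 164) in Schwann-like cells and 64.5 CPM (59.4 to 69.9) in oocyte-like cells.

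CRABP1 (ENSCHIG00000019166), the other intracellular retinoic acid binding protein, was found mostly in germ-like and endothelial-like cells at E85 and E105, and in oocyte-like cells in the library labelled E125. Germ-like cells had 117 CPM (107 to 127) at E85 and 198 CPM (177 to 220) at E105, a ratio of 1.69 (1.47 to 1.94), and held 52.4% and 57.3% of its UMIs. The gene had a UMI in 77.0% and 85.7% of germ-like cells, and in 11.1% (7.36 to 15.8) and 26.2% (17.2 to 36.9) after thinning to 1000 UMIs. Macrophage-like cells of these libraries had none, with limits of 8.18 and 6.39 CPM. In oocyte-like cells of the library labelled E125 CRABP1 was at 312 CPM (301 to 324), in 81 of 115 cells, which held 76.6% of its UMIs there. The median depth of oocyte-like cells was 66285 UMIs, and 31.3% (23.0 to 40.6) had a UMI after thinning to 1000 UMIs. Sertoli-like cells, in which CRABP2 was high, had 1.49 and 1.57 CPM of CRABP1 with overlapping intervals.

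Endothelial-like cells had 231 CPM (208 to 255) of CRABP1 at E85, 113 CPM (96.5 to 132) at E105 and 56.9 CPM (51.0 to 63.3) in the library labelled E125. The E105 to E85 ratio was 0.491 (0.406 to 0.592), and single cells weighed on it. Without the highest cell of each library the levels were 170 and 90.3 CPM and the ratio 0.531. The JAG2-led cluster 19 held 285 of the 378 endothelial-like UMIs at E85, 72 of 161 at E105 and 100 of 335 in the library labelled E125, where cluster 5 held 234. Cluster 19 had 970 CPM (861 to 1090) in 54 cells at E85, 280 CPM (219 to 352) in 49 cells at E105 and 242 CPM (197 to 295) in 65 cells of the library labelled E125. In that cluster the E85 value was the highest, 687 CPM without its highest cell, and the other libraries had overlapping intervals. In cluster 8 the levels of 66.6 and 49.9 CPM had overlapping intervals.

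A small set of lymphoid-like cells carried CRABP1 in the library labelled E125. Lymphoid-like cells had 4.21 CPM (8 UMIs), 4.37 CPM (13 UMIs) and 303 CPM (246 to 368; 100 UMIs), and 87 of the 100 UMIs were in the 25 cells of cluster 12, led by the cytotoxic gene CTSW. That cluster had 2.16, 2.53 and 873 CPM, and 737 CPM without its highest cell. The IL26/ICOS-led cluster, which stayed unnamed, had 99.3 CPM (51.3 to 173), 114 CPM (65.1 to 185) and 759 CPM (652 to 879), with a UMI in 2 of 24, 4 of 39 and 32 of 50 cells. Both clusters were thus highest in the library labelled E125. Stromal-like cells were low in all libraries, at 6.07 CPM (4.10 to 8.67), 2.03 CPM (1.16 to 3.29) and 15.4 CPM (13.5 to 17.5), and the E105 to E85 ratio was 0.334 (0.170 to 0.632), from 16 and 30 UMIs. Among stromal-like clusters, cluster 3 had 8.90 CPM (5.81 to 13.0) in 1476 cells at E85 and 1.79 CPM (2 UMIs) in 585 cells at E105, while cluster 1 had 1.68 CPM (2 UMIs) in 511 cells and 2.32 CPM (13 UMIs) in 2420 cells. The intervals of the libraries overlapped in both clusters, and the cells were divided differently between them. In the library labelled E125, 171 of the 236 stromal-like UMIs lay in cluster 4, in 67 of its 1589 cells. The level was 31.3 CPM there and 6.32 CPM in cluster 2.

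RBP4 (ENSCHIG00000023599), the retinol carrier that is secreted into the blood, was highest in stromal-like cells among the classes of at least 20 cells at E105. They had 48.6 CPM (42.6 to 55.1) at E85, 73.6 CPM (67.7 to 79.8) at E105 and 25.7 CPM (23.2 to 28.3) in the library labelled E125. The E105 to E85 ratio was 1.52 (1.30 to 1.77), and the library labelled E125 stood below E105 by a ratio of 0.349 (0.306 to 0.397). Levels differed among the stromal-like clusters. Cluster 14, led by the DNA replication gene MCM4, and cluster 21, led by histone genes, had 108 and 78.4 CPM at E85 and 93.6 and 154 CPM at E105. Cluster 1 had 36.2 CPM (26.2 to 48.7) at E85 and 73.2 CPM (66.3 to 80.6) at E105, while cluster 3 had 43.1 and 44.7 CPM with overlapping intervals.

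Sertoli-like cells had 13.2 CPM (11.8 to 14.7) of RBP4 at E85 and 22.0 CPM (19.95 to 24.1) at E105, a ratio of 1.67 (1.44 to 1.93). Germ-like cells had 29.0 and 27.9 CPM, a ratio of 0.961 (0.675 to 1.35). The CLEC9A/AIF1-led cluster had 36.5 and 45.5 CPM with overlapping intervals, and pregranulosa-like cells of the library labelled E125 had 29.2 CPM. Schwann-like cells of that library had 78.3 CPM (45.6 to 125.3) from 17 UMIs. Endothelial-like cells were low in all 3 libraries, at 0.704 to 1.83 CPM. STRA6 (ENSCHIG00000020579), the membrane protein that takes up retinol from RBP4, had 25, 15 and 7 UMIs in whole libraries. At E85 and E105 all but 1 of these were in Sertoli-like cells, at 0.964 CPM (0.617 to 1.43) and 0.761 CPM (0.426 to 1.26). In the library labelled E125, 6 of the 7 were in endothelial-like cells, at 1.02 CPM (0.374 to 2.22). The Sertoli-like intervals overlapped, so a difference in STRA6 was not detectable at this depth.

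RARB (ENSCHIG00000011887), the retinoic acid receptor that also responds to retinoic acid, was found mostly in germ-like and oocyte-like cells. Germ-like cells had 29.7 CPM (24.8 to 35.2) at E85 and 30.8 CPM (23.1 to 40.3) at E105, a ratio of 1.04 (0.740 to 1.44). They held 85.2% and 66.3% of its UMIs, and a UMI was found in 41.7% of cells in both, against 0.255% and 0% of lymphoid-like cells (a limit of 3 cells in 578). Thinned to 1000 UMIs, the germ-like shares were 2.13% (0.694 to 4.90) and 4.76% (1.31 to 11.8), with overlapping intervals. Oocyte-like cells of the library labelled E125 had 94.1 CPM (87.9 to 100.6) with a UMI in 72 of 115 cells, and held 79.2% of the RARB UMIs of that library. Their median depth was 66285 UMIs, and thinned to 1000 UMIs 9.57% (4.87 to 16.5) of these cells had a UMI. The highest of those cells held 42 of the 866 UMIs. Sertoli-like cells had 0.161 and 0.101 CPM, from 4 and 2 UMIs. Stromal-like cells had 2.63 CPM (13 UMIs), 2.28 CPM (18 UMIs) and 9.01 CPM (138 UMIs), and endothelial-like cells 1.83 CPM (3 UMIs), 0.704 CPM (1 UMI) and 10.7 CPM (63 UMIs). In both classes the library labelled E125 was the highest, at ratios to E85 of 3.43 (1.94 to 6.60) and 5.84 (1.91 to 29.1), and in both its cells lay mainly in other clusters. Among cells with at least 3000 UMIs the stromal-like ratio was 1.65.

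A ratio was taken for a gene with at least 20 UMIs over both libraries in a class of at least 50 cells in both. Between E105 and E85 this gave 26 ratios of the 9 genes in 7 named classes. Of these, 6 were past 2-fold, 3 higher and 3 lower at E105, while 8.6% of all feature and class pairs measured the same way were past 2-fold. The higher ones were CRABP2 in Sertoli-like and germ-like cells and ALDH1A1 in mural-like cells, and the lower ones CRABP1 in stromal-like and endothelial-like cells and ALDH1A2 in germ-like cells. In Sertoli-like cells 1 of 6 members measured was past 2-fold against 7.82% of features, in germ-like cells 2 of 7 against 8.45%, in stromal-like cells 1 of 6 against 8.11% and in endothelial-like cells 1 of 2 against 7.07%. All 4 counts are small, so these shares are imprecise. The median log2 ratio over all features was 0.21 in germ-like cells, and relative to that median CRABP2 was at 3.90, CRABP1 at 1.46 and ALDH1A2 at 0.310 in these cells. The mural-like and endothelial-like calls were lost when cells were averaged with equal weight, at ratios of 1.997 and 0.564.

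**Figure D4:**
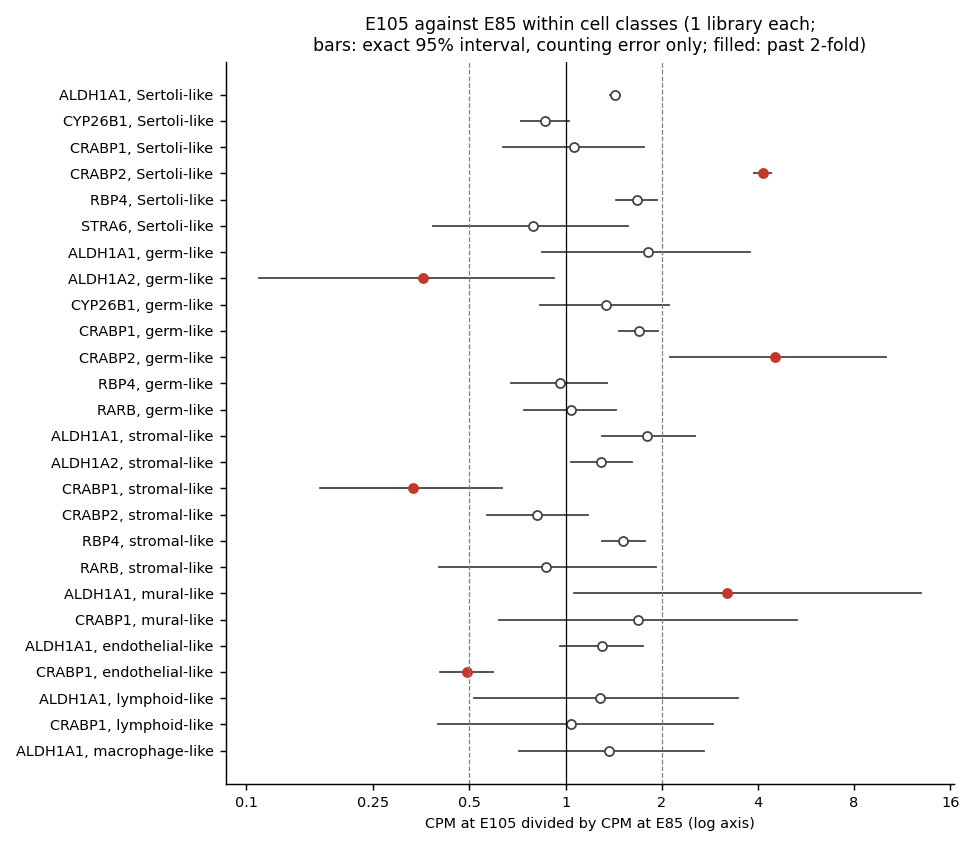
Ratio of the E105 level to the E85 level (log axis) for each gene and class with at least 20 UMIs over both libraries and at least 50 cells in each. Points are the ratios of class sums with exact 95% intervals, filled where past 2-fold (dashed lines at 0.5 and 2). CRABP2 in Sertoli-like cells, at 4.14, has a narrow interval that lies wholly past 2-fold, while ALDH1A1 in mural-like cells, at 3.20, runs from 1.07 to 13.0.

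Against the library labelled E125, 11 of 14 ratios to E85 were past 2-fold (8 higher and 3 lower), and 11 of 15 to E105 (8 higher and 3 lower). Of all feature and class pairs, 29.7% and 28.7% were past 2-fold in these comparisons, which share the library labelled E125. The higher ones against E85 were ALDH1A1, CYP26B1, CRABP1 and RARB in stromal-like cells, CYP26B1 and RARB in endothelial-like cells and CRABP1 in lymphoid-like cells. The last of the 8 was CYP26A1 in stromal-like cells, with 22 against 0 UMIs. It was called past 2-fold because the limit of 3 UMIs at E85 gives 2.37-fold. The exact interval of its ratio starts at 1.77, so a ratio below 2-fold lies within counting error. The lower ones were ALDH1A2 and CRABP2 in stromal-like cells and CRABP1 in endothelial-like cells. In stromal-like cells this was 7 of 8 members measured against 34.8% of features.

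The other genes of the pathway were taken from a list of 76 symbols, of which 63 had a feature. Between E105 and E85, 20 of 152 ratios were past 2-fold, 14 higher and 6 lower, against the same 8.6% of all pairs. In Sertoli-like cells 4 of 30 were past 2-fold, where 7.82% of all features were, with DHRS7 (4.42 and 10.9 CPM), ALDH1A3 (0.642 and 2.99 CPM) and RXRB (0.522 and 1.07 CPM) higher and RARRES1 (2.69 and 0.761 CPM) lower at E105. In germ-like cells 2 of 33 were past 2-fold (8.45% of features), both higher at E105, among them HOXB2 at 6.30 and 22.7 CPM. These genes and the others under 50 CPM in this paragraph were chosen after their values were seen. In stromal-like cells 4 of 29 were past 2-fold (8.11% of features), all higher at E105, led by the short-chain dehydrogenase DHRS7 with 33.6 and 78.3 CPM, a ratio of 2.33 (1.96 to 2.78). In endothelial-like cells 2 of 22 were past 2-fold (7.07% of features), both lower at E105, with the retinoic acid responsive transglutaminase gene TGM2 at 65.4 and 25.3 CPM, a ratio of 0.388 (0.258 to 0.571). STRA8, the meiosis gene that retinoic acid switches on, had 32 and 23 UMIs in germ-like cells, or 7.20 CPM (4.92 to 10.2) and 13.4 CPM (8.47 to 20.1) with overlapping intervals, and 0.869 CPM in oocyte-like cells. REC8, a cohesin of meiosis, was at 74.9 and 81.4 CPM in germ-like cells with overlapping intervals and at 794 CPM (776 to 813) in oocyte-like cells.

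Against the library labelled E125, 48 of 107 pathway ratios to E85 were past 2-fold (43 higher and 5 lower) and 56 of 113 to E105 (42 higher and 14 lower). The shares of all feature and class pairs past 2-fold were 29.7% and 28.7%. DHRS3, which turns retinal back to retinol and responds to retinoic acid, was at 22.3 CPM in stromal-like cells at E85, with 35.3 CPM at E105, and 604 CPM in the E125-labelled library. It was at 215, 197 and 905 CPM in mural-like cells and at 26.3, 25.3 and 175 CPM in endothelial-like cells, so the library labelled E125 was highest in all 3 classes. RDH10, which makes the retinal that the ALDH1A enzymes use, was at 13.8, 15.6 and 117 CPM in stromal-like cells and at 906 CPM in the KRT7/NR1H4-led cluster of the library labelled E125. The co-repressor NCOR1 was higher in the library labelled E125 than at E85 in each of the 5 classes compared, at ratios of 4.54 to 6.81.

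**Figure D5:**
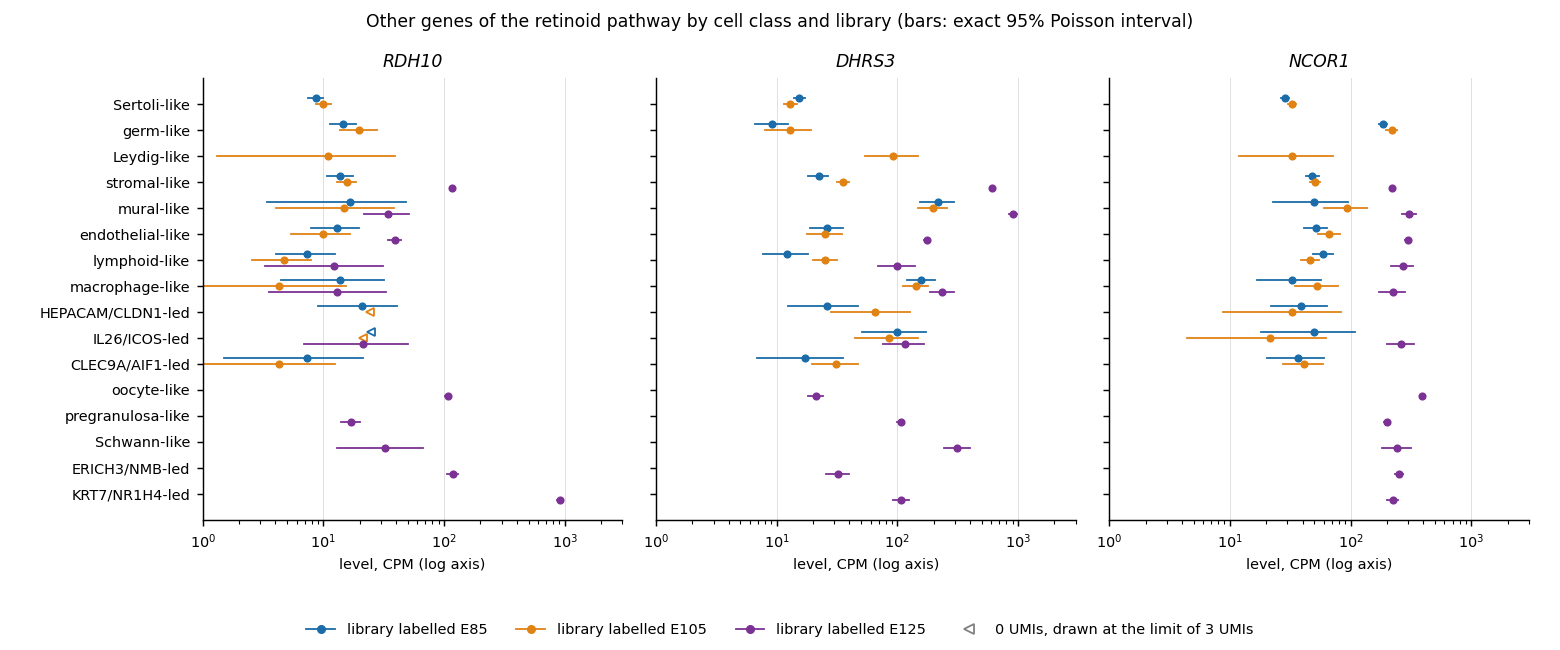
Levels of RDH10, DHRS3 and NCOR1 (CPM, log axis from 1) by cell class, 1 panel per gene, for classes of at least 20 cells. Points are class sums of 1 library with exact 95% Poisson intervals, and open triangles are 0 UMIs at the limit of 3 UMIs. DHRS3 and RDH10 were higher in stromal-like cells of the library labelled E125 than of the other two, and there DHRS3 stood at 604 CPM.

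Over the 28 profiles of a class in a library with at least 50 cells, 5279 genes with a symbol and at least 50 CPM in some profile were ranked by the Pearson correlation of log2(CPM + 1) with each member. The profiles share libraries and differ in depth, so the values describe these profiles alone. The gene most like CRABP1 was KIT, the receptor of stem cell factor (r = 0.84), and the gene most like ALDH1A2 was the transcription factor gene EMX2 (r = 0.86), followed by MMADHC (0.82). RARB was most like FAM81A (0.88) and HEY1 (0.85). CRABP2 was most like CUTA (0.85) and PCCB (0.82), ALDH1A1 like CYP20A1 (0.79), RBP4 like PGM3 (0.76) and CYP26B1 like CSRP2 (0.75), NKD2 (0.74) and the Notch ligand gene DLL1 (0.74). CYP26A1 and STRA6 reached 50 CPM in no class and were left out.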

How the data were processed

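The deposited matrices hold raw UMI counts per feature and barcode, made by the authors with Cell Ranger, version 6.0.0 per the file headers and 3.1 per the submitters' processing notes. The genome build and the annotation were not given in the sources used here. Symbols covered 60.5% of the UMIs. The members and gene lists were chosen with earlier results of these data known. Listed genes were looked up by symbol alone.

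Barcodes under 1000 UMIs or 500 genes, or with a mitochondrial share (13 genes) over 20%, were dropped, and 6328, 7069 and 7319 passed for E85, E105 and E125. The top 6% by a doublet score from simulated cell pairs was removed in each library (380, 424 and 439). Cells were scaled to 10000 counts and log-transformed, and Leiden clustering (resolution 1) of 15 neighbours on 30 principal components of 3000 variable genes, none of them members or pathway genes, gave 40 clusters (Python 3.11.15, numpy 2.4.6, scipy 1.17.1, scikit-learn 1.9.0, leidenalg 0.10.2, python-igraph 0.11.9, figures with matplotlib 3.10.9). A cluster was called by a cell type where at least 3 of its listed markers were detected, at least 2-fold above the other clusters and in at least 10% of cells, without more markers of another type among its 10 leading genes. A mean log2 marker fold of at least 0 was also asked, which was chosen after seeing the data. This gave 11 classes, and 7 clusters stayed unnamed and are called by their leading genes.

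UMIs were summed per class and library. Levels were given for classes of at least 20 cells, and a count of 0 got the limit of 3 counts. The 9 members are always named. Of the pathway lists, up to 4 genes per class and comparison with at least 50 CPM and a ratio past 2-fold were named, ranked by the interval bound nearest 1, with the 3 highest list genes of each class and library. Some of these genes are not reported here, though the counts over the lists include them. Like genes were the 3 of highest correlation with each member that reached 50 CPM. No test was run, since a stage is 1 library and cells do not replicate it. The ratio step was tested on simulated data. In all, 11 alternative settings were run.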

Additional observations from a re-analysis of the deposited data

Results flagged for a closer look

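CRABP1 differed in direction between classes in the library labelled E125 against E85. Its ratio was 72.0 in lymphoid-like cells and 2.54 in stromal-like cells, so both were higher, and 0.247 in endothelial-like cells, which were lower. The difference between the classes was not tested, since each stage is 1 library. ALDH1A1 in the library labelled E125 against E105 was higher in stromal-like cells, at a ratio of 5.09, and lower in mural-like cells, at 0.292. Without the highest cell of each class and library the mural-like ratio was 0.654, and with each cell weighted equally it was 0.729. This difference was not tested either.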

How the results depend on the processing

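No paired analysis was possible because each stage is 1 library. Of 429 ratios of the 9 genes under alternatives, 396 moved by less than their interval, 33 moved by more and 0 turned from a call in one direction to the other. Of 603 levels, 526 moved by less than their interval. The 6 ratios of the 9 genes past 2-fold between E105 and E85, 1 per gene and class, were 2 at a minimum of 100 summed UMIs, 20 with no minimum and 12 at 1.5-fold. The 11 of the library labelled E125 against E85 were 7 with at least 3000 UMIs per barcode and 23 with no minimum, and the 11 against E105 were 24 with no minimum. Pathway gene ratios past 2-fold, 20, 48 and 56 in these comparisons, were 6, 27 and 30 at 100 summed UMIs and 116, 121 and 132 with no minimum. They were 28 and 29 in the library labelled E125 against E85 and E105 with at least 3000 UMIs per barcode. With cells gated on their own markers they were 13 between E105 and E85 and 35 between the library labelled E125 and E105. For the alternatives in this paragraph, the number of ratios measured and the share of all features past 2-fold are not given. The counts therefore show only how many calls each setting gave, and cannot be set against all features. Leaving out the highest cell of each class and library, chosen after seeing the data, gave 6, 11 and 10 ratios of the 9 genes. Of those 6, CRABP1 in mural-like cells was newly past 2-fold (2.86), but this rests on very few UMIs. The cells left out held 5 of its 6 UMIs at E85 and 11 of its 15 at E105. CRABP1 in endothelial-like cells was no longer past 2-fold. The CRABP2 ratio in Sertoli-like cells stayed between 3.84 and 4.31 and the CYP26B1 ratio of the library labelled E125 to E85 in endothelial-like cells between 32.0 and 49.3 under the alternatives run. Ratios past 2-fold that moved inside it under some alternative were, between E105 and E85, CRABP1 in endothelial-like cells (up to 0.632) and ALDH1A1 in mural-like cells (1.997), and in the library labelled E125 against E85, in stromal-like cells, CRABP1 (1.83 with gated cells), CRABP2 (0.803 at Leiden resolution 2) and RARB (1.65). Against E105 it was ALDH1A1 in mural-like cells (up to 0.729). The cause of these changes was not tested. Low depth limits CYP26A1 and STRA6, and classes of few cells.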
